A study of Arabidopsis thaliana with 59 samples.

Results

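The genes described here are the 5565 of 32375 Arabidopsis thaliana genes with a deposited value (17.2%) whose mean of 22-nt small RNA reads was at least 5 units in ski2-2 dcl4-2 ago1-27 or in ski2-2 dcl4-2. A unit is the authors' scaled read number, described with the depth below. For each gene the mean of the ago1-27 triple mutant plus 1 was divided by the mean of ski2-2 dcl4-2 plus 1, and this ratio is called the fold of the means. Of these genes 633 reached the minimum in ski2-2 dcl4-2 ago1-27 alone, 1737 in ski2-2 dcl4-2 alone and 3195 in both. The comparison asks which 22-nt reads of ski2-2 dcl4-2 depend on fully working AGO1.

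All plants were 20 days old, with 6 days spent on MS medium and 14 days on soil, and small RNA came from their whole aerial parts. The main groups are ski2-2 dcl4-2 ago1-27 with 3 libraries and ski2-2 dcl4-2 with 4. Further groups of 4 libraries each are ski2-2 dcl4-2 ago1-45 with another AGO1 allele, ski2-2 dcl4-2 dcl2-1 without DCL2, ein5-1 dcl4-2 ago1-27 and its background ein5-1 dcl4-2, and the wild type Col-0. All mutant groups share dcl4-2, and both genotypes of the main comparison share ski2-2 as well, so by genotype they differ in ago1-27 alone. The labels call the libraries biological replicates without saying how many plants or seed lots they came from, so p-values measure the spread between libraries only. In whole aerial parts, fewer cells of a type and fewer small RNAs per cell cannot be told apart. Small RNA reads over AGO1, SKI2 or DCL4 do not check the alleles of these genes. None of 8 floral organ identity genes had a read in the ago1-27 triple mutant libraries, and their summed mean was 1.74 units in ski2-2 dcl4-2.

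As background, Dicer-like enzymes cut double-stranded RNA into small RNAs, and DCL4 makes the 21-nt class while DCL2 makes the 22-nt class. SKI2 is an RNA helicase that feeds mRNA to the exosome for decay from the 3′ end, while EIN5 (XRN4) is the cytoplasmic nuclease of 5′ to 3′ decay. RDR6 can copy single-stranded mRNA into double strands, and 22-nt small RNAs bound to AGO1 are known to trigger such copying. AGO1 is the Argonaute that carries most microRNAs and many siRNAs and cleaves or represses their targets. The allele ago1-27 is a partial loss-of-function allele, known for loss of siRNA silencing with milder loss of microRNA function, and ago1-45 is another AGO1 allele.

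Sequences that recur in the results are printed first. Mature microRNAs are RefSeq annotations on build TAIR10.1, read 5′ to 3′ with the seed (bases 2 to 8) in capitals. The first 3 belong to loci with high upward folds in the ago1-27 triple mutant, and the mature sequences of MIR172a and MIR172b, and of MIR390a and MIR390b, were identical. MIR850 has a mature form of 22 nt, and the others have 21 nt. The last 3 are known to guide cleavage of target genes whose 22-nt reads are described below.
miR172a: aGAAUCUUgaugaugcugcau
miR390a-5p: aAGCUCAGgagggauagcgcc
miR850: uAAGAUCCggacuacaacaaag
miR166g: uCGGACCAggcuucauucccc
miR160a-5p: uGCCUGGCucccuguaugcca
miR171a-3p: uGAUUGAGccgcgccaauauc

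The target sites of these last 3 microRNAs were found by pairing in the TAIR10.1 coding sequences and are shown as DNA of the coding strand, 5′ to 3′, with positions that form no Watson-Crick pair with the microRNA, G:U pairs included, in capitals. Genes for class III homeodomain-leucine zipper (HD-ZIP III) transcription factors carried the miR166 site in 3 versions, and in each gene an intron of 82 to 116 bases interrupted it. PHB (chr2:14642530-14642666, minus strand) and PHV (chr1:10799330-10799445, minus strand) had the same site. REV (chr5:24398787-24398898, plus strand) and ATHB8 (chr4:15866872-15866974, minus strand) shared another. The 3 HAM genes had 1 site that pairs throughout, at chr2:18619128-18619148 in HAM1, chr3:22411544-22411564 in HAM2 and chr4:58411-58431 in HAM3, all on the minus strand.
PHB and PHV, miR166 site: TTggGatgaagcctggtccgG
REV and ATHB8, miR166 site: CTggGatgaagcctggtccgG
CNA, miR166 site: CTggaatgaagcctggtccgG
ARF10, miR160 site: AggAatacagggagccaggca
ARF16, miR160 site: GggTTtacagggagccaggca
ARF17, miR160 site: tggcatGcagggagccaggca
HAM1, HAM2 and HAM3, miR171 site: gatattggcgcggctcaatca

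The deposited table gives 1 mean per genotype, and the reads of single libraries were recovered from those means. In the ago1-27 triple mutant 1 read was worth 0.330, 0.360 and 0.398 units in libraries A, B and C, and in ski2-2 dcl4-2 it was worth 1.11, 1.39, 1.46 and 4.74 units in libraries A to D. Recovered reads numbered 346066 to 407862 per ago1-27 triple mutant library and 22062 to 95900 per ski2-2 dcl4-2 library, where library D was the shallow one. The 228 members with no recovered libraries in 1 of the groups include most of the highest genes of ski2-2 dcl4-2, and they are described by the authors' means with no test against ski2-2 dcl4-2. The column means added up to 151358 units in the ago1-27 triple mutant and 967422 units in ski2-2 dcl4-2, and the 15 highest genes of ski2-2 dcl4-2 held 0.282% and 73.2% of these sums. The part of this difference in make-up, and of the difference in depth, in the results was not tested. The columns of the ago1 genotypes were printed with more digits than the others. In every comparison of ski2-2 dcl4-2 ago1-27 with a genotype without an ago1 allele, a difference in the authors' handling and one in genotype therefore cannot be told apart. One gene, AT2G01021, was listed at 0 in the 4 ago1 genotypes, at 10842 units in ski2-2 dcl4-2 and at 11561 units in Col-0.

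By fold of the means, 689 members (12.4%) were at 2 or more and 1801 members (32.4%) at 1/2 or less. The extremes were unequal, with 239 members at 1/10 or less, 45 at 1/100 or less and 13 at 1/1000 or less, against 23 at 10 or more and 1 at 100 or more. Members annotated as protein-coding were 46.9% of all members but 82.8% of those at 1/2 or less, and pseudogenes were 48.1% of all members but 67.1% of those at 2 or more. Members just inside the minimum, with a larger mean of 5 to 5.5 units, had a median fold of 0.574 over 378 genes, and 434 genes just outside it, at 4.5 to 5 units, had 0.545. With the same rule, 15.9% of 5903 genes were at 2 or more and 41.7% at 1/2 or less for ago1-45 in ski2-2 dcl4-2, a comparison that shares its ski2-2 dcl4-2 libraries with this one. For ago1-27 in ein5-1 dcl4-2 these shares were 6.45% and 45.3% of 9536 genes.

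**Figure D1:**
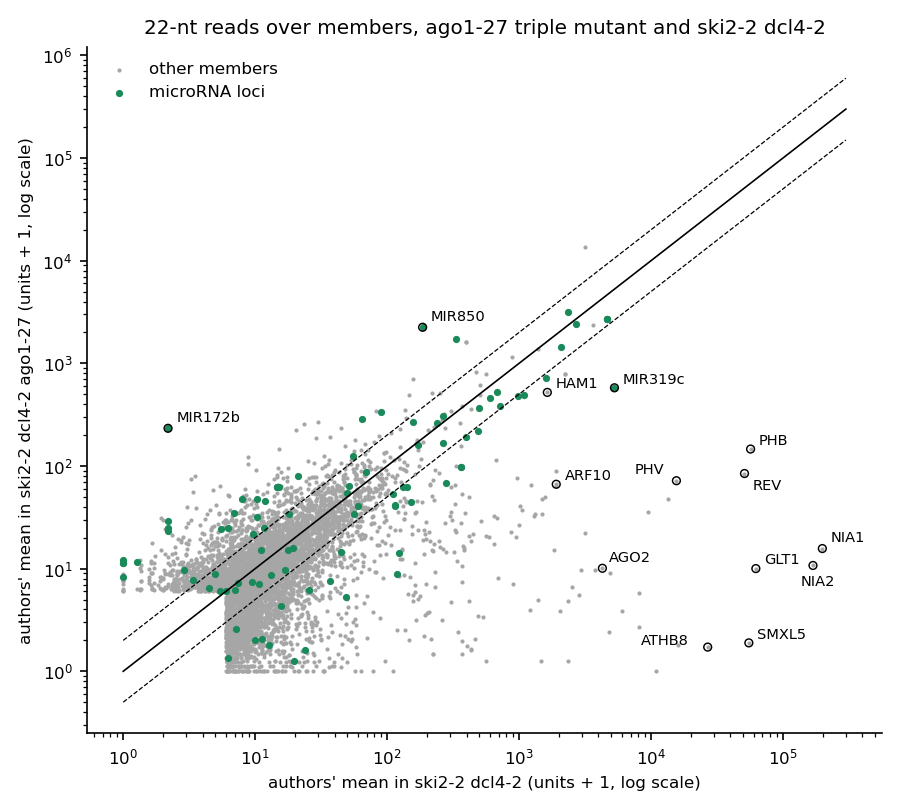
Authors' mean of 22-nt reads in ski2-2 dcl4-2 ago1-27 (vertical) against ski2-2 dcl4-2 (horizontal) for 5565 genes, in units plus 1 on log axes; each point is a gene, green points are microRNA loci, the solid line marks equal values and the dashed lines a factor of 2. Genes near the right edge, such as NIA1 at 14.7 against 198967 units, lie far below the line, while MIR172b and MIR850 lie above it.

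Over 11939 genes with recovered libraries and a mean of at least 1 unit, limma on log2(units + 1) called 596 genes higher (4.99%) and 1046 lower (8.76%) in ski2-2 dcl4-2 ago1-27 than in ski2-2 dcl4-2, at an adjusted p below 0.05. The median log2 fold over all tested genes was -0.38. Higher calls were 36.3% of all calls as scaled by the authors, 57.0% after quantile normalization with a median of -0.05, and 62.2% after scaling on the means of all microRNA loci with a median of -0.04, an alternative added after the values were seen. They were 6.92% after scaling on the microRNA loci with recovered libraries, a set that lacks the highest microRNA loci, where the median was -0.90, and 17.0% in limma-voom on the recovered reads. All 3 ago1-27 triple mutant libraries lay above all ski2-2 dcl4-2 libraries for 1047 genes (8.77%) and below them for 1941 genes (16.3%). Leaving out the shallow ski2-2 dcl4-2 library D gave 804 higher and 1678 lower genes, and leaving out ago1-27 triple mutant library A, B or C gave 371 to 395 higher and 687 to 748 lower genes.

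Annotation differed between the genes called lower and higher on the units as deposited. Among the 1046 lower genes 80.3% were protein-coding and 15.9% pseudogenes, while among the 596 higher genes 23.8% were protein-coding and 68.1% pseudogenes; the tested genes were 66.5% and 30.8%. When scaled on recovered microRNA loci, the 2597 lower genes held 1744 protein-coding genes and 757 pseudogenes, where the 12808 tested genes held 8815 and 3670.

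The genes that carried most 22-nt reads in ski2-2 dcl4-2 had few of them in the ago1-27 triple mutant. The nitrate reductase genes NIA1 and NIA2 had 13.5, 16.2 and 14.3 units and 10.2, 12.6 and 6.37 units in the ago1-27 triple mutant libraries, against authors' means of 198967 and 168986 units in ski2-2 dcl4-2. Their folds of the means were thus 12678 times and 15738 times lower. Both also lay below Col-0 (log2 fold -1.91 ± 0.19 SE, limma adjusted p = 5.89e-11 for NIA1, and -2.91 with limma adjusted p = 7.99e-16 for NIA2), where their means were 57.9 and 77.2 units. Together these genes held 0.0161% of all units in the ago1-27 triple mutant and 38.0% in ski2-2 dcl4-2. GLT1, the NADH-dependent glutamate synthase, had 11.2, 8.64 and 7.17 units in the ago1-27 triple mutant libraries against 62348 units in ski2-2 dcl4-2. It kept 1663 units in ski2-2 dcl4-2 ago1-45, and no difference of the ago1-27 triple mutant from Col-0 passed the test (log2 fold -0.38 ± 0.30 SE, limma adjusted p = 0.432).

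SMXL4 and SMXL5, relatives of heat-shock proteins that act in phloem formation, had almost no reads in the ago1-27 triple mutant. SMXL5 had 0, 1.08 and 1.59 units in the ago1-27 triple mutant libraries against a mean of 55180.2 units in ski2-2 dcl4-2, and SMXL4 had 1.32, 0.720 and 0.398 against 15963. Both lay below Col-0, SMXL5 with a log2 fold of -3.59 (limma adjusted p = 4.85e-10) and SMXL4 with means of 0.813 units in the ago1-27 triple mutant and 13.5 units in Col-0 (limma adjusted p = 1.14e-07). Of the 8 SMXL genes 5 were tested against ski2-2 dcl4-2 and 2 were lower, with a median log2 fold of -1.42, against 8.76% lower and a median of -0.38 over all tested genes. SMXL2 had 0.661, 1.44 and 0.797 units in the ago1-27 triple mutant libraries and 27.8, 25.1, 17.5 and 28.5 units in the ski2-2 dcl4-2 libraries, which did not overlap (log2 fold -3.71 ± 0.44 SE, limma adjusted p = 1.54e-07). SMAX1, its close relative in karrikin signalling, fell with a log2 fold of -2.62 (limma adjusted p = 5.25e-05).

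Further genes among the 15 highest of ski2-2 dcl4-2 were also far lower by the authors' means. GUN5, the H subunit of magnesium chelatase, had 38.6, 44.6 and 57.8 units in the ago1-27 triple mutant libraries against a mean of 13371 units in ski2-2 dcl4-2 and 206 units in Col-0. ATMS1, a methionine synthase, averaged 35.0 units against 9537. The receptor kinase gene BAM3 averaged 1.71 units against 8105, and DGAT3, a diacylglycerol acyltransferase, 4.80 against 8056.

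Over all 62 nuclear genes outside microRNA loci with at least 500 units in ski2-2 dcl4-2, the median mean was 19.6 units in the ago1-27 triple mutant, 25.2 units in ski2-2 dcl4-2 ago1-45, 22.3 units in ski2-2 dcl4-2 dcl2-1, 1731 units in ski2-2 dcl4-2 and 28.2 units in Col-0. They were chosen for a high value in ski2-2 dcl4-2, which by itself favours low folds, so their median fold of the means of 0.00751, with 55 genes at 1/10 or less and 33 at 1/100 or less, is a description only. In 48 of them the ago1-27 triple mutant mean was below that of Col-0. The 14 others held 8 targets of small RNAs (PHB, REV, PHV, CNA, ARF6, ARF10, HAM1 and AGO2), and also AT1G20070, ABCG14, AT3G06435, AT3G44570, AT3G44580 and AT2G01008. Such targets were among the 48 too, as ATHB8 (0.720 against 0.768 units in Col-0), ARF8 (2.38 against 2.93) and PAP1 (0.253 against 2.26). ARF6 (2.88 against 1.18 units) and ABCG14 (0.253 against 0.236) had few reads in both genotypes. The share of targets among all 62 genes was not counted. These lists were read off after the values were seen.

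Some of these high genes stayed near their level in ski2-2 dcl4-2 or above it by the authors' means. The fold of the means was above 1/2 for AT3G06435, AT3G44570, AT3G44580, AT2G07688 and AT2G01008, singled out after their values were seen. These genes were high in the wild type too. In the same order their Col-0 means were 6520, 827, 485, 710 and 584 units, against 3187, 887, 560, 508 and 502 units in ski2-2 dcl4-2. AT3G06435, an uncharacterised gene, had the highest value, 13545 units in the ago1-27 triple mutant against 3187 units in ski2-2 dcl4-2. AT3G44570, annotated as a retrotransposon ORF-1 protein, had 1089, 1173 and 1180.1 units in the ago1-27 triple mutant libraries, against means of 10.9 units in ski2-2 dcl4-2 dcl2-1 and 887 units in ski2-2 dcl4-2. It was far above ski2-2 dcl4-2 dcl2-1 (log2 fold 6.72 ± 0.23 SE, limma adjusted p = 3.24e-17), and so was its uncharacterised neighbour by number AT3G44580 (log2 fold 7.12 ± 0.35 SE, limma adjusted p = 1.29e-13).

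**Figure D2:**
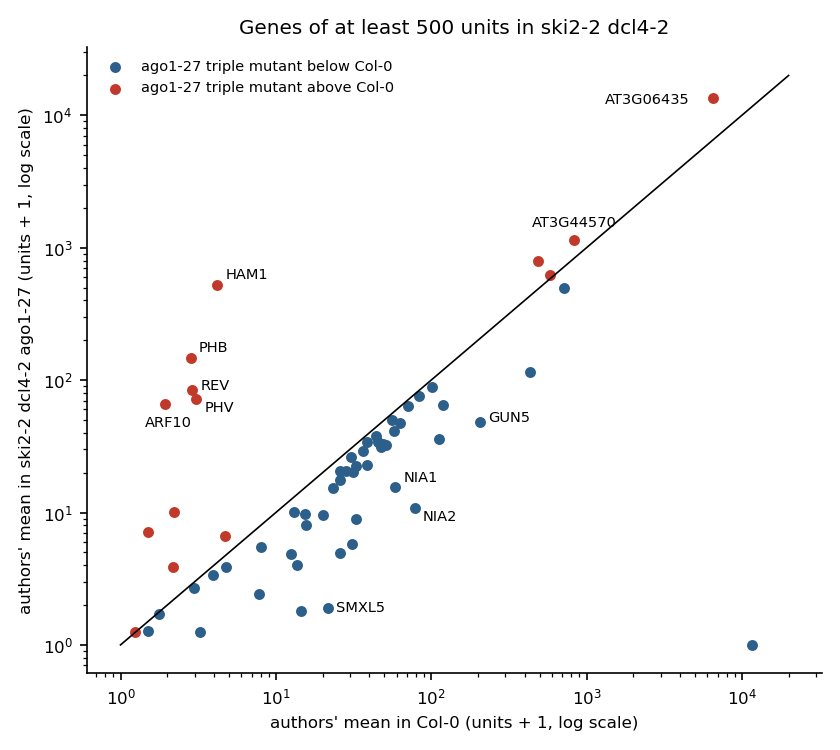
Authors' mean of 22-nt reads in ski2-2 dcl4-2 ago1-27 (vertical) against Col-0 (horizontal), in units plus 1 on log axes, for the 62 nuclear genes outside microRNA loci with at least 500 units in ski2-2 dcl4-2; the line marks equal values. Blue points, 48 genes, lie below Col-0, and PHB, REV, PHV, ARF10 and HAM1 stand well above the line.

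The HD-ZIP III genes, which specify the upper leaf side and vascular tissue and are targets of miR166, kept more reads than the wild type, except ATHB8. Their summed mean was 306 units in the ago1-27 triple mutant, 1063 units in ski2-2 dcl4-2 ago1-45, 103 units in ski2-2 dcl4-2 dcl2-1, 151406 units in ski2-2 dcl4-2 and 7.06 units in Col-0. PHB had 143, 153 and 139 units in the ago1-27 triple mutant libraries and 3.25, 0.943, 0 and 3.12 units in the Col-0 libraries, with no overlap (log2 fold 5.92 ± 0.34 SE, limma adjusted p = 9.81e-19). REV had 95.5, 70.2 and 84.8 units in the ago1-27 triple mutant libraries and 2.44, 0.943, 2.05 and 2.08 units in Col-0 libraries, again with no overlap (log2 fold 4.90 ± 0.30 SE, limma adjusted p = 1.4e-17). PHV, with 71.7, 82.8 and 58.1 units in the ago1-27 triple mutant libraries, stood at a log2 fold of 4.63 over Col-0 (limma adjusted p = 9.79e-16). Of the 5 genes 4 could be tested against Col-0 and all 4 were higher, where 4.12% of tested genes were, and 3 were when scaled on recovered microRNA loci.

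ATHB8 carries the same miR166 site as REV but kept almost no reads, with 0, 2.16 and 0 units in the ago1-27 triple mutant libraries against a mean of 26908 units in ski2-2 dcl4-2. Its Col-0 mean was 0.768 units. CNA, whose site has 1 G:U pair fewer than the other 4, had 7.93, 6.48 and 3.98 units in the ago1-27 triple mutant libraries against a mean of 894 units in ski2-2 dcl4-2. Against ski2-2 dcl4-2 dcl2-1, where DCL2 is lost instead, PHB (log2 fold 1.95 ± 0.30 SE, limma adjusted p = 2.34e-05) and REV (log2 fold 1.48 ± 0.33 SE, limma adjusted p = 0.00182) were higher in the ago1-27 triple mutant and ATHB8 was lower (log2 fold -3.27, limma adjusted p = 5.55e-05). Of all 5 genes 4 were higher and 1 lower in that comparison, against 3.97% higher and 17.4% lower of all genes tested.

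HAM1, a GRAS transcription factor gene of the shoot meristem and a miR171 target, kept the most reads of the targets named here. It had 648, 419 and 494 units in the ago1-27 triple mutant libraries, against means of 414 units in ski2-2 dcl4-2 ago1-45, 2.88 units in ski2-2 dcl4-2 dcl2-1, 1637 units in ski2-2 dcl4-2 and 3.21 units in Col-0. It was thus 3.14 times below ski2-2 dcl4-2 by fold of the means, and far above Col-0 (log2 fold 7.05 ± 0.24 SE, limma adjusted p = 1.24e-26) and ski2-2 dcl4-2 dcl2-1 (log2 fold 7.30, limma adjusted p = 3.38e-13). HAM2, with the same site, had 72.3, 64.4 and 58.9 units in the ago1-27 triple mutant libraries against means of 211 units in ski2-2 dcl4-2 and 3.17 units in Col-0, and was higher than Col-0 (log2 fold 4.05 ± 0.30 SE, limma adjusted p = 5.31e-15). HAM3, with this site too, had only 2.97, 3.96 and 5.18 units in the ago1-27 triple mutant libraries and 15.5, 30.6, 17.5 and 9.48 units in ski2-2 dcl4-2 libraries (log2 fold -1.85 ± 0.43 SE, limma adjusted p = 0.0025). The 21 bases of the site were identical in all of these genes.

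The ARF genes, auxin response factors that are cut by miR160, miR167 or TAS3 siRNAs, differed among themselves as well. ARF10 had 140.0, 23.0 and 33.1 units in the ago1-27 triple mutant libraries against a mean of 1913 units in ski2-2 dcl4-2 and 0.943 units in Col-0, and library A was far above the other two. ARF16 had 0.330, 1.44 and 0.797 units in the ago1-27 triple mutant libraries and 35.5, 50.1, 45.2 and 47.4 units in ski2-2 dcl4-2 libraries, with no overlap (log2 fold -4.65 ± 0.39 SE, limma adjusted p = 1.4e-10). ARF17 fell with a log2 fold of -2.68 (limma adjusted p = 9.46e-07) and ARF2 with one of -1.15 (limma adjusted p = 0.0213), a call for ARF2 that was lost under quantile normalization, scaling on all microRNA loci or no trend. ARF6 had 3.30, 2.16 and 3.19 units in the ago1-27 triple mutant libraries against 6077 in ski2-2 dcl4-2, and ARF8 averaged 2.38 against 535 units. Of the 8 genes on this list 5 were tested against ski2-2 dcl4-2, with 0 higher and 3 lower, and their median log2 fold was -1.15. Over all tested genes 4.99% were higher and 8.76% lower, with a median of -0.38.

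**Figure D3:**
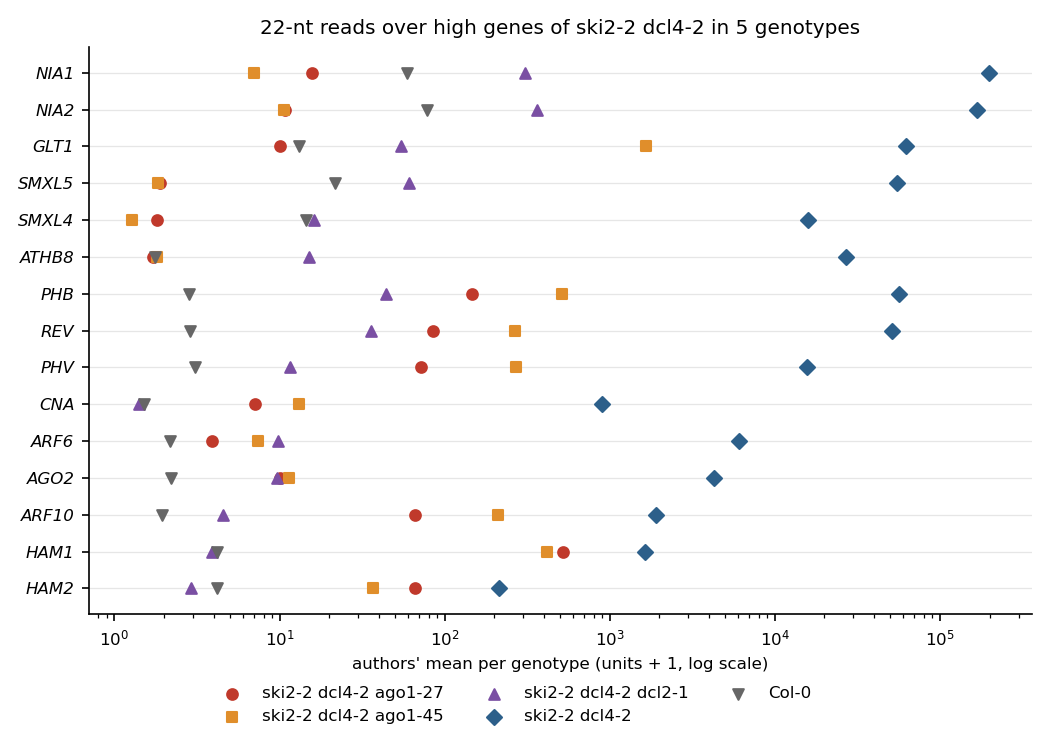
Authors' mean of 22-nt reads (units plus 1, log axis) for 15 genes, down the page, with 1 symbol each for the triple mutants of ski2-2 dcl4-2 with ago1-27, with ago1-45 and with dcl2-1, for ski2-2 dcl4-2 itself and for Col-0. Nitrate reductase and SMXL genes sit below Col-0 in both ago1 triple mutants, whereas PHB, REV, PHV, ARF10, HAM1 and HAM2 sit between Col-0 and ski2-2 dcl4-2.

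No gene on the list of other conserved microRNA targets was called higher than in ski2-2 dcl4-2. Of its 47 genes 33 were tested and 20 were lower, against 8.76% of all tested genes, and the median log2 fold was -2.51, or -2.73 with genes without reads at their bound, against -0.38 over all tested genes. The count of lower genes was 20 to 22 under quantile normalization and both scalings on microRNA loci. NFYA3, a subunit of the CCAAT-binding factor and a miR169 target, had 0.661, 0.720 and 0.797 units in the ago1-27 triple mutant libraries and 60.0, 57.1, 68.6 and 42.7 units in ski2-2 dcl4-2 libraries, with no overlap (log2 fold -5.05 ± 0.36 SE, limma adjusted p = 7.35e-12). NFYA5 had 1 read in all ago1-27 triple mutant libraries and 100 in ski2-2 dcl4-2, a ratio of 331 (95% counting interval 58.0 to 13191). CUC2, the boundary gene targeted by miR164, had no read in the ago1-27 triple mutant and was at least 48.5-fold lower, with a floor of 3 reads over the group. MYB33, a miR159 target, fell with a log2 fold of -4.13 (limma adjusted p = 2.04e-10), the growth factor gene GRF1, a miR396 target, with one of -4.01 (3.88e-07), and the flowering repressors TOE1 and TOE2, miR172 targets, with -3.22 and -3.61 (3.12e-05 and 6.92e-08).

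Auxin receptor genes are targets of miR393 and sources of siRNAs. TIR1 fell with a log2 fold of -2.35 (limma adjusted p = 0.000239) and AFB3 with one of -3.07 (limma adjusted p = 8.7e-10), and AFB2 averaged 14.7 units against 129 units in ski2-2 dcl4-2. Of the 3 receptor genes tested 2 were lower, against 8.76% of all tested genes.

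Reads over AGO1 itself, which miR168 targets, numbered 9.91, 9.36 and 15.1 units in the ago1-27 triple mutant libraries and 127, 149, 97.8 and 123 units in ski2-2 dcl4-2 libraries, with no overlap (log2 fold -3.34 ± 0.22 SE, limma adjusted p = 8.36e-13), and their Col-0 mean was 10.4 units. AGO2, an Argonaute gene of antiviral defence and a miR403 target, had 11.2, 10.4 and 5.58 units in the ago1-27 triple mutant libraries against a mean of 4283 units in ski2-2 dcl4-2, and its neighbour AGO3 averaged 0.606 against 431 units. AGO2 stayed above Col-0 (log2 fold 2.17 ± 0.44 SE, limma adjusted p = 0.000328). DCL1, the microRNA-making Dicer, fell with a log2 fold of -1.47 (limma adjusted p = 0.00155). DCL4 had 3.96, 4.68 and 1.19 units in the ago1-27 triple mutant libraries and 5.55, 2.78, 4.38 and 4.74 units in ski2-2 dcl4-2 libraries, which overlapped. Of 9 silencing and decay factors tested AGO1 and DCL1 were called, both lower, where 8.76% of all tested genes were lower and 4.99% higher.

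Most anthocyanin genes tested were lower. Over the 14 genes of the list the summed mean was 2.87 units in the ago1-27 triple mutant and 906 units in ski2-2 dcl4-2, of which PAP1, not tested, held 560.4 units. This sum was 180 units in ski2-2 dcl4-2 dcl2-1 and 63.8 units in Col-0. Of 9 genes tested 7 were lower and 0 higher, against 8.76% and 4.99% of all tested genes, and 7 to 8 were lower under the 3 other scalings. CHS, chalcone synthase, the first enzyme of the flavonoid pathway, had 2.64, 1.08 and 0.797 units in the ago1-27 triple mutant libraries and 129.9, 114, 161 and 138 units in ski2-2 dcl4-2 libraries, far apart (log2 fold -5.83 ± 0.29 SE, limma adjusted p = 7.5e-15). The later enzymes DFR and F3PRIMEH (flavonoid 3′-hydroxylase) and the glycosyltransferase UF3GT were at least 148-fold, 100.3-fold and 73.9-fold lower. They had no read in the ago1-27 triple mutant. LDOX, anthocyanidin synthase, had 2 reads there, for a ratio of 193 (95% counting interval 52.4 to 1616). The MYB regulator PAP1, which TAS4 siRNAs target, averaged 0.253 units against 560.4, and its relative PAP2 had no read and was at least 80.5-fold lower. Reads at MIR828 were lower as well, 2 in the ago1-27 triple mutant against 42 in ski2-2 dcl4-2, a ratio of 69.4 (95% counting interval 18.1 to 592).

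Of 13 stress and abscisic acid genes tested 12 were lower, against 8.76% of all tested genes, and 12 were under each of the 3 other scalings. Their median log2 fold was -2.62, against -0.38 over all tested genes. The summed mean of all 14 genes on the list was 47.1 units in the ago1-27 triple mutant and 464 units in ski2-2 dcl4-2. It was 371 units in ski2-2 dcl4-2 dcl2-1, which lacks DCL2, and 108 units in Col-0. P5CS1, the enzyme of proline synthesis, had 1.98, 1.80 and 3.19 units in the ago1-27 triple mutant libraries and 70.0, 89.1, 108 and 80.6 units in ski2-2 dcl4-2 libraries (log2 fold -4.73 ± 0.30 SE, limma adjusted p = 3.58e-13). HSP70 had 1.65, 1.44 and 2.39 units in the ago1-27 triple mutant libraries and a mean of 57.4 ± 22.1 units (SD, n = 4) in ski2-2 dcl4-2 (log2 fold -4.32 ± 0.35 SE, limma adjusted p = 8.17e-11). Neither gene overlapped between the groups. RD29A and RAB18, genes induced by drought and abscisic acid, had 3 and 2 reads in the ago1-27 triple mutant, for ratios of 126 (95% counting interval 41.9 to 618) and 172 (95% counting interval 46.4 to 1439), and RD29B, with none, was at least 60.6-fold lower. The cold-regulated genes COR15A, COR47, KIN1, KIN2 and ERD10 fell with log2 folds of -2.62, -2.25, -2.34, -2.20 and -3.17.

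Of 11 genes tested for nitrate uptake and ammonium assimilation 2 were lower, with a median log2 fold of -1.09, against 8.76% lower and a median of -0.38 over all tested genes. NIR1, the nitrite reductase that follows nitrate reductase, had 3.63, 1.44 and 3.58 units in the ago1-27 triple mutant libraries and 31.1, 18.1, 33.6 and 52.2 units in ski2-2 dcl4-2 libraries, with no overlap (log2 fold -3.13 ± 0.40 SE, limma adjusted p = 6.17e-07). GLU1, the ferredoxin-dependent glutamate synthase, fell with a log2 fold of -2.28 (limma adjusted p = 6.78e-11). MIPS1, the myo-inositol phosphate synthase, fell with a log2 fold of -4.08 (limma adjusted p = 1.22e-10) and HSC70-1, a constitutive chaperone, had 34.4, 28.4 and 26.3 units in the ago1-27 triple mutant libraries and 123, 136, 119.7 and 156 units in ski2-2 dcl4-2 libraries (log2 fold -2.14 ± 0.17 SE, limma adjusted p = 6.31e-11).

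**Figure D4:**
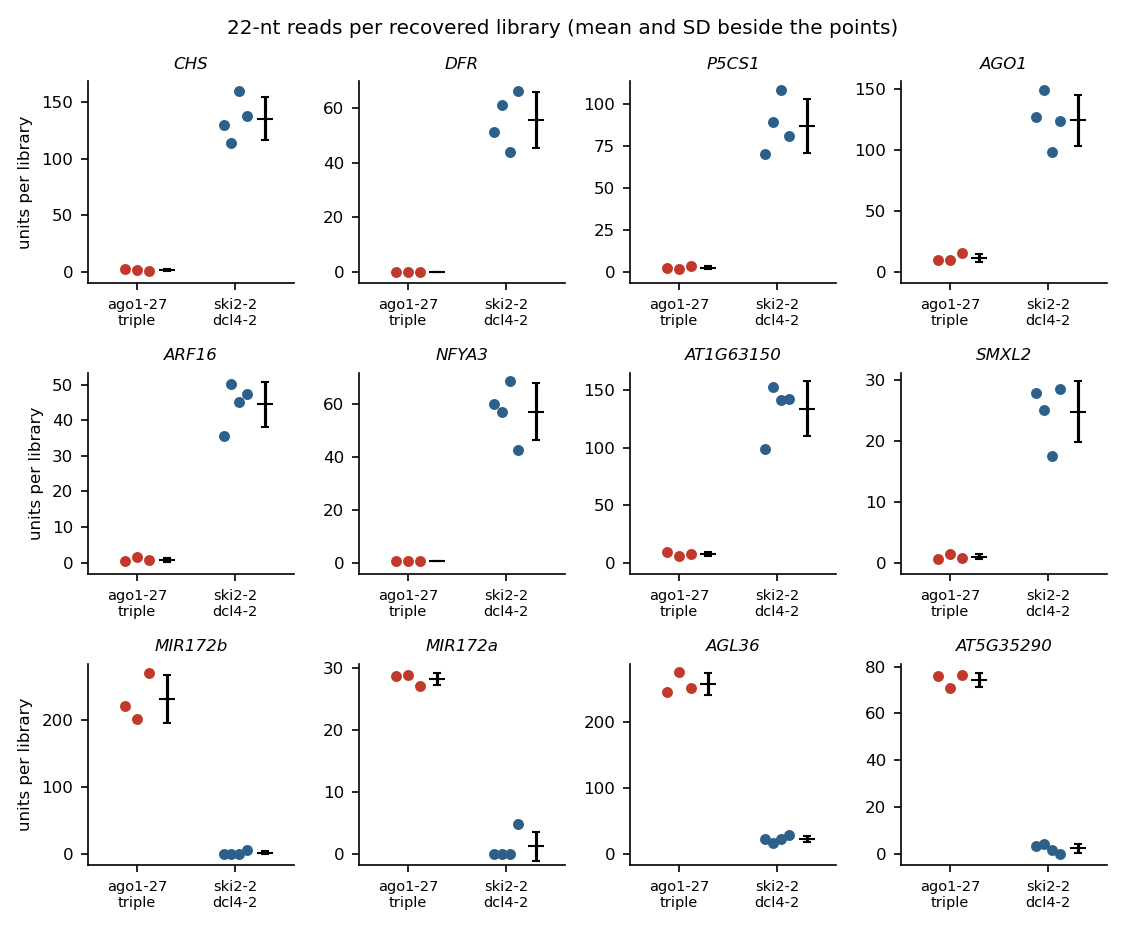
Units of 22-nt reads in each recovered library for 12 genes; red points are the 3 libraries of ski2-2 dcl4-2 ago1-27 on the left of each panel, blue points the 4 libraries of ski2-2 dcl4-2 on the right, and the bar beside each group gives mean and SD. The 12 genes were picked by hand, and the groups do not overlap in any panel. MIR172b, MIR172a, AGL36 and AT5G35290 were higher and the other 8 lower in the ago1-27 triple mutant. Over all tested genes, the ago1-27 triple mutant libraries lay above all ski2-2 dcl4-2 libraries in 8.77% and below them in 16.3%.

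The pentatricopeptide repeat (PPR) genes of chromosome 1, known to make phased siRNAs after cleavage by TAS siRNAs and miR161, behaved unlike the high genes in that Col-0 had the most reads. Over 17 genes the summed mean was 124 units in the ago1-27 triple mutant, 230 units in ski2-2 dcl4-2 ago1-45, 43.8 units in ski2-2 dcl4-2 dcl2-1, 1189 units in ski2-2 dcl4-2 and 4013 units in Col-0. Of 13 genes tested against ski2-2 dcl4-2, 9 were lower and 0 higher, against 8.76% lower and 4.99% higher of all tested genes, with a median log2 fold of -2.69 and 9 to 11 lower under the 3 other scalings. AT1G63150 had 9.58, 6.12 and 7.17 units in the ago1-27 triple mutant libraries and 98.8, 153, 142 and 142 units in ski2-2 dcl4-2 libraries, with no overlap (log2 fold -3.97 ± 0.23 SE, limma adjusted p = 5.76e-14). AT1G62910 and AT1G62930 fell with log2 folds of -3.87 and -3.52 (limma adjusted p = 5.76e-14 and 3.4e-12). Against Col-0 7 of 9 tested genes were lower, where 11% of all tested genes were. Against ski2-2 dcl4-2 dcl2-1, however, 6 of 13 were higher and 0 lower, where 3.97% and 17.4% of all tested genes were, and 1 to 9 were higher under the 3 other scalings. These genes are close copies of each other and the handling of reads that map to several genes is not stated, so the split among copies is uncertain.

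Genes of photosynthesis and of the chloroplast gave few or scaling-dependent calls, while mitochondrial genes were lower in a larger share. Over all tested genes 4.99% were higher and 8.76% lower. Of 13 nuclear photosynthesis genes tested 1 was higher and 1 lower, with a median log2 fold of 0.12 that became -0.76, with 0 higher and 6 lower, when scaled on recovered microRNA loci and 0.58, with 7 higher and 0 lower, when scaled on all microRNA loci. The higher one was CA1, a carbonic anhydrase, with 29.1, 21.2 and 37.0 units in the ago1-27 triple mutant libraries and 7.77, 12.5, 7.30 and 9.48 units in ski2-2 dcl4-2 libraries (log2 fold 1.54 ± 0.34 SE, limma adjusted p = 0.00158), a call lost when scaled on recovered microRNA loci. The lower one was GAPB, a subunit of the chloroplast glyceraldehyde phosphate dehydrogenase (log2 fold -1.18 ± 0.29 SE, limma adjusted p = 0.00389), a call lost without the trend and when scaled on all microRNA loci. Of 75 chloroplast genes 11 were higher and 1 lower, with a median of 0.26 that became -0.57, with 1 higher and 23 lower, when scaled on recovered microRNA loci and 0.71, with 24 higher and 0 lower, when scaled on all microRNA loci. Of 109 mitochondrial genes 1 was higher (0.917%) and 25 lower (22.9%). Their median was -0.32, against -0.38 over all tested genes, and became 0.01 after quantile normalization.

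MicroRNA loci, read here only through their 22-nt reads, moved in both directions. Of 81 tested, 28 were higher (34.6%) and 11 lower (13.6%), against 4.99% and 8.76% of all tested genes. Their median log2 fold was 0.76. It became -0.02, with 21 higher and 21 lower, when scaled on the recovered microRNA loci. Scaled on all microRNA loci it was 1.07, with 32 higher and 10 lower. All 178 loci have an annotated mature form, and 28 of them, 17 of the 92 members, 2 of the 28 higher and 3 of the 11 lower have one of 22 nt. MIR172b had the largest fold of the means, with 222, 203 and 272 units in the ago1-27 triple mutant libraries and 0, 0, 0 and 4.74 units in ski2-2 dcl4-2 libraries. The value of ski2-2 dcl4-2 library D is 1 read, so the ratio of 579 (95% counting interval 104 to 22896) has a wide interval. MIR172a had 28.7, 28.8 and 27.1 units in the ago1-27 triple mutant libraries and 0, 0, 0 and 4.74 units in ski2-2 dcl4-2 libraries, again with 1 read in ski2-2 dcl4-2, a ratio of 71.1 (95% counting interval 12.6 to 2818). The mature forms of MIR172a and MIR172b are identical, so some reads may be counted at both, the 1 read of ski2-2 dcl4-2 included. MIR172 acts on AP2-like genes and promotes flowering. Reads over its targets AP2, TOE1 and TOE2 were lower in the same libraries (AP2 at a log2 fold of -2.46, limma adjusted p = 0.000734).

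MIR390a, whose product starts TAS3 siRNA formation, had 21.5, 15.5 and 34.3 units in the ago1-27 triple mutant libraries and 3.33, 0, 1.46 and 0 units in ski2-2 dcl4-2 libraries, with no overlap (log2 fold 3.70 ± 0.58 SE, limma adjusted p = 1.91e-05). MIR163, which acts on methyltransferase genes, had 334, 272 and 257 units in the ago1-27 triple mutant libraries and 66.6, 64.1, 86.1 and 37.9 units in ski2-2 dcl4-2 libraries (log2 fold 2.21 ± 0.18 SE, limma adjusted p = 6.13e-11). MIR167d, whose product targets ARF6 and ARF8, had 253, 286 and 464 units in the ago1-27 triple mutant libraries and 86.6, 84.9, 86.1 and 94.8 units in ski2-2 dcl4-2 libraries (log2 fold 1.86 ± 0.15 SE, limma adjusted p = 3.69e-11). All 3 loci were thus above every ski2-2 dcl4-2 library in each ago1-27 triple mutant library. MIR395a, MIR395d and MIR395e, loci of sulfate starvation, rose by log2 folds of 2.09, 2.06 and 2.08, and their target APS4, an ATP sulfurylase, fell with one of -2.73 (limma adjusted p = 0.000445). MIR390a and MIR390b, and the MIR395 loci, share near-identical mature forms, so reads may be counted at more than 1 of them. Lower loci included MIR831 (log2 fold -3.11 ± 0.20 SE, limma adjusted p = 7.28e-13), MIR846 (log2 fold -3.12) and MIR866 (log2 fold -3.82).

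The highest microRNA loci had no recovered ski2-2 dcl4-2 libraries and no test. MIR850 had 2191, 2214 and 2335 units in the ago1-27 triple mutant libraries against a mean of 185 units in ski2-2 dcl4-2, a fold of the means of 12.1. MIR157c averaged 1742 units against 334. Others were lower or close, with MIR319c at 577 against 5286 units, MIR159b at 720.2 against 1599, MIR166g at 2711 against 4645 and MIR403 at 2402 against 2690.0. Loci that share the mature form of MIR166g include MIR166e and MIR166f.

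Beyond microRNA loci the higher genes were mostly annotated pseudogenes and uncharacterised loci. Of the 596 genes called higher 94.5% had a ski2-2 dcl4-2 mean below that of Col-0, against 36.3% of all tested genes. Their ago1-27 triple mutant mean was above that of Col-0 in 75.3%, against 40.4% of all tested genes. A higher call selects low values in ski2-2 dcl4-2 and high values in the ago1-27 triple mutant. That by itself favours both shares, so they are a description only. Of 3674 pseudogenes tested 406 were higher (11.1%) and 166 lower (4.52%), against 4.99% and 8.76% of all tested genes. Their median log2 fold was 0.26. The split turned to 101 higher and 757 lower, with a median of -0.46, when scaled on recovered microRNA loci. It was 773 and 60 when scaled on all microRNA loci and 661 and 101 after quantile normalization. AGL36, an imprinted MADS-box gene of the endosperm, had 245, 276 and 251 units in the ago1-27 triple mutant libraries and 22.2, 16.7, 21.9 and 28.5 units in ski2-2 dcl4-2 libraries (log2 fold 3.49 ± 0.19 SE, limma adjusted p = 1.67e-14). The pseudogene AT3G32990 had 216, 228 and 354 units in the ago1-27 triple mutant libraries and 25.5, 36.2, 30.7 and 23.7 units in ski2-2 dcl4-2 libraries (log2 fold 3.14 ± 0.19 SE, limma adjusted p = 1e-13). The uncharacterised AT5G28560 had 208, 211 and 251 units in the ago1-27 triple mutant libraries and 18.9, 25.1, 19.0 and 14.2 units in ski2-2 dcl4-2 libraries (log2 fold 3.49 ± 0.20 SE, limma adjusted p = 5.76e-14). None of the 3 overlapped, and the Col-0 means were 115, 48.5 and 116 units. AT5G35290 had 76.0, 70.9 and 76.5 units in the ago1-27 triple mutant libraries and 3.33, 4.18, 1.46 and 0 units in ski2-2 dcl4-2 libraries (log2 fold 4.79 ± 0.46 SE, limma adjusted p = 2.2e-09), with 21.5 units in Col-0. AT2G04063, a glycine-rich protein gene, and AT5G35300 followed with log2 folds of 5.04 and 4.35. Some pseudogenes went the other way, among them AT3G42718 (-3.10), AT4G03860 (-2.40) and AT3G33058 (-2.13).

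**Figure D5:**
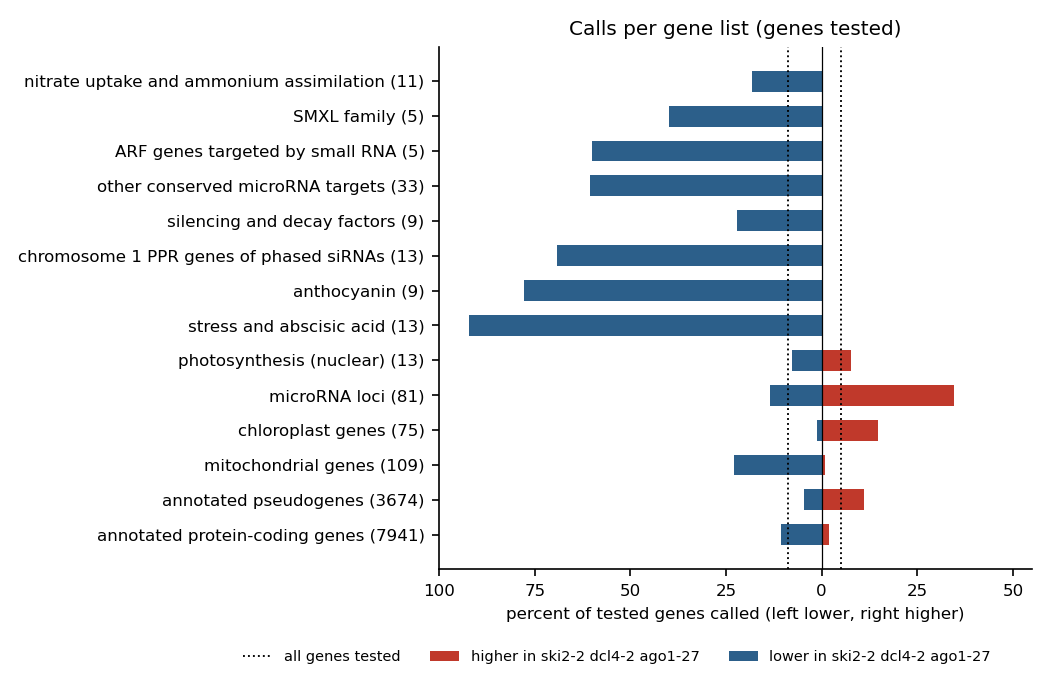
Percent of tested genes called lower (blue, to the left) and higher (red, to the right) in ski2-2 dcl4-2 ago1-27 than in ski2-2 dcl4-2 for 14 gene lists, with the number tested in brackets; dotted lines mark all tested genes, 8.76% lower and 4.99% higher. Stress, anthocyanin, PPR and microRNA target genes reach furthest to the left, while microRNA loci, chloroplast genes and pseudogenes show an excess of higher calls that is lost or turns when scaled on recovered microRNA loci and grows when scaled on all microRNA loci.

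Between the AGO1 alleles, ski2-2 dcl4-2 ago1-27 was set against ski2-2 dcl4-2 ago1-45, where 24% of 11674 tested genes were higher and 21% lower. These 2801 and 2451 genes became 1023 and 3246 when scaled on all microRNA loci and 306 and 4090 on recovered ones, and the median log2 fold over all genes of -0.32 became -0.70 and -0.93. HD-ZIP III reads were lower with ago1-27, with PHB at 143, 153 and 139 units in ago1-27 triple mutant libraries and 505, 481, 576 and 497 units in ago1-45 triple mutant libraries (log2 fold -1.82 ± 0.09 SE, limma adjusted p = 8.56e-17), and REV and PHV at log2 folds of -1.67 and -1.92. ARF10 was lower too (log2 fold -2.10 ± 0.29 SE, limma adjusted p = 1.02e-06), whereas HAM1 was called higher at a log2 fold of 0.31 (limma adjusted p = 0.011), which became -0.28, -0.81 and -0.23 under the scalings on all and on recovered microRNA loci and under quantile normalization. NIA1 was higher with ago1-27, 13.5, 16.2 and 14.3 units against 9.35, 5.46, 4.41 and 4.83 units (log2 fold 1.21 ± 0.33 SE, limma adjusted p = 0.00429), while NIA2 was tested and not called. Of 18 photosynthesis genes tested 0 were higher and 17 lower, with a median of -1.70, and of 80 chloroplast genes 3 were higher and 58 lower. Of 3578 pseudogenes 2014 were higher and 22 lower, or 119 and 178 when scaled on recovered microRNA loci, while of 7766 protein-coding genes 690 were higher and 2340 lower. MIR157c (log2 fold 2.92 ± 0.07 SE, limma adjusted p = 7.64e-25) was among the 54 of 101 microRNA loci that were higher, against 4 lower, or 22 against 23 when scaled on recovered microRNA loci.

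Against Col-0, 4.12% of 10755 genes were higher and 11% lower in ski2-2 dcl4-2 ago1-27. These 443 and 1187 genes became 645 and 727 after quantile normalization, with the median log2 fold moved from -0.22 to 0.03, and 40 and 7040 when scaled on recovered microRNA loci, with a median of -1.37. Of the ARF genes 4 of 7 tested were higher and 0 lower, or 1 and 2 when scaled on recovered microRNA loci, with ARF10 at log2 fold 5.04 ± 0.48 SE, limma adjusted p = 2.8e-11. Anthocyanin genes were lower in 4 of 5 tested and SMXL genes in 3 of 5. AT3G32990 and MIR172b were higher than in Col-0 as well, at log2 folds of 2.43 and 6.12 (limma adjusted p = 2.81e-18 and 4.24e-23). MIR172b thus had 222, 203 and 272 units in the ago1-27 triple mutant libraries and 4.07, 0.943, 2.05 and 3.12 units in Col-0 libraries. The catalase gene CAT2 and the aldolase gene FBA1 were lower, at -2.82 and -2.60 (limma adjusted p = 1.4e-16 and 1.14e-14).

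Against ski2-2 dcl4-2 dcl2-1, which lacks DCL2, 3.97% of 12958 genes were higher and 17.4% lower. These 514 and 2254 genes became 1219 and 1046 after quantile normalization and 2905 and 1250 when scaled on all microRNA loci, with the median log2 fold moved from -0.58 to 0.04 and 0.08, and 58 and 4334 on recovered loci. All 7 anthocyanin genes tested were lower, or 5 after quantile normalization, with CHS at 2.64, 1.08 and 0.797 units in the ago1-27 triple mutant libraries and 115, 122, 137 and 118 units in the ski2-2 dcl4-2 dcl2-1 libraries (log2 fold -5.70 ± 0.28 SE, limma adjusted p = 1.55e-13). MIPS1 (log2 fold -5.33) and the glycine decarboxylase gene GLDP2 (log2 fold -4.19) were lower also. NIA1 averaged 14.7 units in the ago1-27 triple mutant and 307 units in ski2-2 dcl4-2 dcl2-1, and GLT1 was lower (log2 fold -2.35 ± 0.31 SE, limma adjusted p = 2.24e-06).

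The effect of ago1-27 was also set against its effect in ein5-1 dcl4-2, as the difference of the log2 folds. It was higher in ski2-2 dcl4-2 for 456 of 16452 genes (2.77%) and lower for 186 (1.13%), and 271 and 345 genes were so called after quantile normalization, with the median difference over all genes moved from 0.35 to -0.06. PPR genes were lower in 10 of 13 tested, with AT1G62910 at a difference of -4.05 ± 0.49 SE (limma adjusted p = 5.83e-06). In this gene the means were 7.42 units in ski2-2 dcl4-2 ago1-27 and 123 in ski2-2 dcl4-2, and 49.9 in ein5-1 dcl4-2 ago1-27 and 34.8 in ein5-1 dcl4-2. Chloroplast genes were lower in 29 of 76 and microRNA targets in 10 of 32, whereas 0 of 8 anthocyanin genes differed by the test, with a median difference of 0.71, and 1 was higher under either microRNA scaling. AGL36 had the opposite sign, at 1.74 ± 0.30 SE (limma adjusted p = 0.000407), with means of 166 units in ein5-1 dcl4-2 ago1-27 and 50.5 units in ein5-1 dcl4-2. The HD-ZIP III and nitrate reductase genes had no recovered libraries for this test, and NIA1 averaged 28.0 units in ein5-1 dcl4-2 ago1-27 against 393891 units in ein5-1 dcl4-2.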

How the data were processed

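Per the labels' protocols, RNA was taken with a miRNeasy kit and small RNA libraries with a NEBNext set were read on an Illumina sequencer. The submitters' processing notes name Bowtie 1.2.2, SAMtools 1.9 and the build TAIR10. The deposited table gives for each genotype the mean signal of 22-nt reads per gene, headed TPM per the file headers; its denominator is not given in the sources used here, 1 read of a library is worth the same for every gene, and no gene length enters. Counting of multi-mapping reads and of strands by the authors is not stated. The deposited table also gives log2 folds, p-values and adjusted p-values of 8 comparisons made with DESeq2, none with an ago1 genotype, which were not used here. Design choices had assumed counts per library, and the means needed a test for continuous values instead.

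A match to a mean had to lie within 0.75 of its last printed digit, or far closer in the ago1 genotypes, whose means have more digits. Means of the ago1 genotypes were also searched up to higher values. Whole reads per library were recovered where 1 combination alone matched a mean. This gave values for 32373 genes in ski2-2 dcl4-2 ago1-27 and 32147 in ski2-2 dcl4-2, where the 228 others include the highest genes, so the tests lack the largest falls. Libraries are lettered by depth. Within ski2-2 dcl4-2, its 3 triple mutants and Col-0, no pair of libraries agreed within sampling noise; the ein5-1 groups were not checked. Groups were compared on log2(units + 1) by limma (version 3.58.1, under R 4.3.3) using its intensity trend, for genes averaging 1 unit or more, with Benjamini-Hochberg adjustment over all tested genes and a threshold of 0.05. The pseudocount understates folds of low genes. Groups of 0 reads were set at 3 reads over the group, and ratios with 1 to 3 reads carry exact 95% intervals. Intervals and floors cover counting error only.

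Named genes are the 15 highest of ski2-2 dcl4-2, the 10 higher and 10 lower genes with the largest difference in mean among non-overlapping calls with a log2 fold of at least 1, 5 and 5 in other comparisons, the 8 largest upward folds with at least 20 units in the ago1-27 triple mutant, genes of fixed lists and the mutated genes; the text names a part of them, and exceptions are marked. Members and lists were chosen with earlier results of these data known. Alternatives were other scalings, pseudocounts, filters, models and leaving out each library. The procedures were tested on simulated data. Of 32420 gene IDs 31722 matched RefSeq, and 45 genes without a value, among them the TAS loci, were not analysed here. RefSeq sequences and positions are of TAIR10.1.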

Additional observations from a re-analysis of the deposited data

Results flagged for a closer look

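In groups of 4 libraries 1 library can stand apart by its gap to the nearest other, a rule by which chance marks about 1 in 20 groups; 68 genes were examined and 8 were marked. Library D of ski2-2 dcl4-2 stood apart in depth, as 1 of its reads was worth 4.742 units against 1.11 to 1.46 units in the others. The same library gave the only read of MIR172b and of MIR172a, at 4.742 units each, the highest value of MIR167d, at 94.84 units against 84.9 to 86.6 units, and the lowest of RD29B, at 14.23 units. Other ski2-2 dcl4-2 libraries stood apart in 4 genes: library A was low for AT1G62930, at 74.41 units, and high for AT1G54200, an Msh6-like gene, at 131.1 units, library B was high for AT1G62860, at 77.98 units, and library C was high for GRF1, at 54.0 units. Without library B the log2 fold of AT1G62860, not a call, was 0.12 rather than -0.11.

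The effect of ago1-27 differed between the ski2-2 dcl4-2 and ein5-1 dcl4-2 backgrounds by the limma test of the difference for 456 genes with a higher and 186 with a lower log2 fold in ski2-2 dcl4-2. The difference was 4.76 for AT5G49700, an AT-hook gene (adjusted p = 0.000486), which averaged 0 units in ski2-2 dcl4-2 ago1-27 and 0.903 in ski2-2 dcl4-2, and 1.73 in ein5-1 dcl4-2 ago1-27 and 93.2 in ein5-1 dcl4-2. For GDH2, a glutamate dehydrogenase, it was 3.15 (adjusted p = 0.00234), with means of 0.946 and 3.55 units in the first pair of genotypes and 4.34 and 97.1 units in the second pair. Both genes were near the floor in ski2-2 dcl4-2, where 1 read was worth 1.11 to 4.74 units. A fall with ago1-27 could therefore hardly be seen there. AT5G28560, AGL36 and AT5G27606, higher with ago1-27 in both backgrounds by their means, differed by 1.995, 1.736 and 1.709 (adjusted p = 7.02e-06, 0.000407 and 4.2e-05).

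The difference was -4.049 for AT1G62910 and -3.856 for AT1G63150 (limma adjusted p = 5.83e-06 and 1.95e-05), genes of the PPR list. Libraries of ein5-1 dcl4-2 ago1-27 were unlike each other for these genes, with 62.4, 8.61, 18.2 and 57.1 units for AT1G63150, and 29.7, 31.9, 23.6 and 36.4 units in ein5-1 dcl4-2 libraries. ATCG00480 of the chloroplast genome differed by -2.122 and LHCA2, a light-harvesting protein gene, by -2.132 (limma adjusted p = 5.83e-06 and 7.08e-05). Both were higher with ago1-27 in ein5-1 dcl4-2, where LHCA2 had 131, 174, 171 and 202 units in ein5-1 dcl4-2 ago1-27 libraries and 32.7, 51.0, 32.7 and 18.2 units in ein5-1 dcl4-2 libraries. PDX1.1, an enzyme of vitamin B6 synthesis, differed by -1.954 (limma adjusted p = 0.0105), with means of 4.62 units in ski2-2 dcl4-2 ago1-27 and 9.74 in ski2-2 dcl4-2, and 210.5 units in ein5-1 dcl4-2 ago1-27 and 88.2 in ein5-1 dcl4-2.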

How the results depend on the processing

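Counts of calls moved with scaling, model and libraries, and the cause was not tested beyond the fewer genes or samples that some alternatives leave. For ago1-27 in ski2-2 dcl4-2 (596 higher, 1046 lower), higher genes numbered 1140 when scaled on the means of all microRNA loci, 193 on recovered microRNA loci, 297 without an intensity trend, 357 with a pseudocount of 0.1 and 988 after quantile normalization, and lower genes 694 and 2597 under the microRNA scalings and 3656 in limma-voom. Leaving out 1 library gave 371 to 804 higher and 687 to 1678 lower genes.

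Against ago1-45 (2801 and 2451), there were 1803 higher and 1494 lower genes with all genotypes in 1 fit, 1175 lower with a mean of at least 5 units, 1023 higher when scaled on all microRNA loci, 306 higher and 4090 lower on recovered ones and 3890 lower in limma-voom. Leaving out 1 library gave 1803 to 2770 higher and 1640 to 2505 lower genes, the lowest number of higher genes without ago1-27 triple mutant library C. Against Col-0 (443 and 1187), there were 139 higher and 558 lower genes in 1 fit, 751 lower with a mean of at least 5 units, 40 higher and 7040 lower on recovered microRNA loci, 223 higher without a trend, 727 lower after quantile normalization and 1788 lower in limma-voom. Leaving out 1 library gave 212 to 475 higher and 673 to 1183 lower genes. Against ski2-2 dcl4-2 dcl2-1 (514 and 2254), there were 2905 higher and 1250 lower genes on all microRNA loci, 58 and 4334 on recovered ones, 1219 and 1046 after quantile normalization, 314 higher with no filter, 207 higher without a trend and 5338 lower in limma-voom. Leaving out 1 library gave 211 to 585 higher and 1416 to 2414 lower genes. In both, leaving out any 1 of the ago1-27 triple mutant libraries lowered the higher count by more than 1.5 times, and library B did so for the lower count.

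For the difference between backgrounds (456 and 186), there were 909 higher genes in 1 fit, 285 higher and 121 lower with no filter, 75 lower without a trend, 135 and 96 with a pseudocount of 0.1, 271 and 345 after quantile normalization and 175 higher in limma-voom. Leaving out 1 library gave 208 to 505 higher and 90 to 223 lower genes, with the low counts without an ago1-27 triple mutant library. Members numbered 379 at a fold of 2 or more and 965 at 1/2 or less with 5 units added to each mean, 300 and 527 with a minimum of 20 units, 3786 at 1/2 or less with a minimum of 2 units, and 1319 at 2 or more with means scaled on microRNA loci.

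Single genes moved less. Over the named genes, 1076 values under other settings and 1006 without 1 library kept direction and side of the threshold, 33 and 11 lost the call, 1 gained it, and 5 and 1 turned. AT1G62860, not a call, ranged from -0.31 to 0.12 without 1 library, turning without ski2-2 dcl4-2 library B, and became 0.35 when scaled on all microRNA loci. Against ago1-45, HAM1 became -0.28, -0.81 and -0.23 when scaled on all and on recovered microRNA loci and after quantile normalization, and HAM2 -0.22 on recovered microRNA loci. The call for ARF2 was also lost without ski2-2 dcl4-2 library C and without any 1 ago1-27 triple mutant library. No paired analysis was possible because the recovered libraries carry no replicate numbers. Depth limits falls in low genes most, as 1 read of ski2-2 dcl4-2 library D is worth 4.74 units.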
